A study of Mus musculus with 24 samples.

Results

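Ccr7 and 6 other receptors that guide lymphoid cells (Ccr9, Ccr6, Cxcr4, Cxcr5, S1pr1 and Gpr183) were followed across CLPs and B cell progenitors that lacked PLCγ1, PLCγ2 or both. The 7 genes were chosen by name, as receptors of the CCR, CXCR, sphingosine-1-phosphate and oxysterol families, out of 24421 genes in the count tables, and all 7 passed the filter on low counts. Earlier results of these data were known at that choice. CLPs are the common lymphoid progenitors of bone marrow (BM), sorted here as Lin-IL-7R+ cells, and B cell progenitors were sorted as B220+IgM-IL-7R+ cells. RNA-seq was performed on 24 libraries, from both populations of 3 mice for each of 4 genotypes. The mice were lethally irradiated CD45.1+ recipients of donor BM, and donor-derived CD45.2+ cells were collected, so that n counts recipients; the number of donors behind each genotype is not stated, and p-values measure the spread between recipients.

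The 4 genotypes were wild type (Plcg1+/+Plcg2+/+), Plcg1-/- (Plcg1-/-Plcg2+/+), Plcg2-/- (Plcg1+/+Plcg2-/-) and double-deficient (Plcg1-/-Plcg2-/-). All donors, wild type included, carried the MxCre transgene and a Rosa-YFP reporter and had been given poly(I-C), which induces Cre through the type I IFN-responsive Mx promoter. The floxed Plcg1 allele was deleted in this way in any interferon-responsive cell, whereas the Plcg2 deficiency was carried in the germ line.

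Homing receptors are G protein-coupled receptors that move a cell along a gradient of its ligand. CCR7 binds CCL19 and CCL21 and brings cells into lymph nodes and the thymus, CCR9 binds CCL25 of thymus and gut, and CCR6 binds CCL20. CXCR4 holds B cell precursors near CXCL12-producing stroma of the BM, CXCR5 draws mature B cells to CXCL13 in follicles, S1PR1 senses sphingosine-1-phosphate and carries cells into blood, and GPR183 (EBI2) senses 7α,25-dihydroxycholesterol.

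Values are normalised CPM, that is, the reads of a gene scaled to the reads on all genes, after edgeR's TMM normalization. Genes were compared by edgeR's quasi-likelihood test, and "called" means that the p, adjusted by the Benjamini-Hochberg method over all genes tested, did not exceed 0.05 and that the log2 fold change was 0.5 or more in size. The depth was 4232345 to 33219995 reads on genes in CLP libraries and 1479582 to 25057223 in libraries of B cell progenitors, and 3 reads corresponded to between 0.0903 and 2.03 CPM.

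Markers set limits on both labels. The CLP libraries held transcripts of committed early B cells, and 10 such markers summed to 894 to 5412 CPM in wild-type CLPs and to 3390 to 4747 CPM in wild-type B cell progenitors. In wild type 0 of the 10 were called between the populations by edgeR, with 0 below an unadjusted p of 0.05 and log2 differences of -0.27 to 0.47. In 4 CLP libraries, 1 of each genotype (wild type replicate 1 and replicate 2 of the other genotypes), Flt3, the receptor that marks early lymphoid progenitors, stood at 196 to 735 CPM, against 25.8 to 115 CPM in the other 8. Gata3, a gene of innate lymphoid and T lineage cells, was also highest in these 4 libraries within their genotype. Sex-linked genes followed the Plcg1 genotype: Ddx3y of the Y chromosome lay between 1.44 and 19.1 CPM in the 12 libraries labelled Plcg1-/- or double-deficient and between 98.2 and 191 CPM in the 12 wild-type and Plcg2-/- libraries, so that effects of sex and of Plcg1 genotype cannot be told apart. Plcg2 was called lower in double-deficient than in wild-type CLPs (log2 fold change -1.10, adjusted p = 0.0375 by edgeR) and B cell progenitors (-1.35, adjusted p = 0.00251). Reads of Plcg2 remained, with means of 122 and 109 CPM in Plcg2-/- and double-deficient CLPs against 233 CPM in wild type. In B cell progenitors these means were 89.1 and 91.6 CPM against 234 CPM. Plcg1 averaged 107 CPM in both wild-type and Plcg1-/- CLPs and 140 CPM in double-deficient ones. These counts cover the whole gene and do not check the loss of its floxed part, so the genotypes are given as labelled. Il7r averaged 342 CPM in wild-type and 304 CPM in double-deficient CLPs and was not called.

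The members differed widely in level. Per kb of exon length in GENCODE M21, wild-type CLPs held Cxcr4 at 326 ± 161 CPM per kb (SD, n = 3), Ccr7 at 28.0 ± 8.60, S1pr1 at 15.5 ± 3.71, Gpr183 at 6.42 ± 4.22, Cxcr5 at 4.53 ± 1.86, Ccr9 at 4.23 ± 3.52 and Ccr6 at 0.441 ± 0.453 CPM per kb. The libraries of Cxcr4, Ccr7 and S1pr1 did not overlap with the next gene in this order, while Gpr183, Cxcr5, Ccr9 and Ccr6 overlapped with their neighbours. Ccr9 has long alternative exons, and over its longest coding transcript its wild-type CLP level was 8.35 CPM per kb, above that of Gpr183 (6.79). In double-deficient CLPs, Ccr7 was the fourth, at 5.60 ± 1.28 CPM per kb, below Cxcr4 (230 ± 40.2), S1pr1 (12.5 ± 4.82) and Gpr183 (6.69 ± 3.67), and its libraries overlapped with those of Gpr183. Over the longest coding transcripts Ccr9 (5.83 CPM per kb) also lay above Ccr7 (5.61) there. In double-deficient B cell progenitors Ccr7 was the third, at 5.89 ± 0.862 CPM per kb.

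Ccr7 lies at chr11:99144196-99155077 on the minus strand (mm10). Its level in CLPs was 38.9, 54.1 and 72.9 CPM in wild type (replicates 1 to 3), 38.9, 39.4 and 23.3 CPM in Plcg1-/-, 26.6, 26.7 and 20.04 CPM in Plcg2-/- and 8.20, 12.9 and 12.1 CPM in double-deficient mice. In B cell progenitors it was 38.4, 53.3 and 81.9 CPM in wild type, 38.1, 36.8 and 35.1 CPM in Plcg1-/-, 19.9, 26.7 and 36.7 CPM in Plcg2-/- and 9.83, 13.2 and 11.9 CPM in double-deficient mice. The 6 double-deficient libraries were lower than all 18 others, a separation for which no share over all genes was computed. Within a population, 3 double-deficient and 3 wild-type libraries were free of overlap for 13.6% of genes in CLPs and for 19.2% in B cell progenitors. The means followed the same order in both populations, wild type, Plcg1-/-, Plcg2-/- and double-deficient. Ordered over all 8 groups, the means ran from 57.8 and 55.3 CPM in wild-type B cell progenitors and CLPs through 36.6 and 33.8 CPM in Plcg1-/- and 27.8 and 24.5 CPM in Plcg2-/- to 11.7 and 11.1 CPM in double-deficient cells. In this order, neighbouring groups were separated without overlap only between wild-type CLPs and Plcg1-/- B cell progenitors (38.9 against 38.1 CPM at the closest) and between Plcg2-/- CLPs and double-deficient B cell progenitors (20.04 against 13.2 CPM). Both pairs differ in population as well as genotype, and no share over all genes was computed for them.

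**Figure D1:**
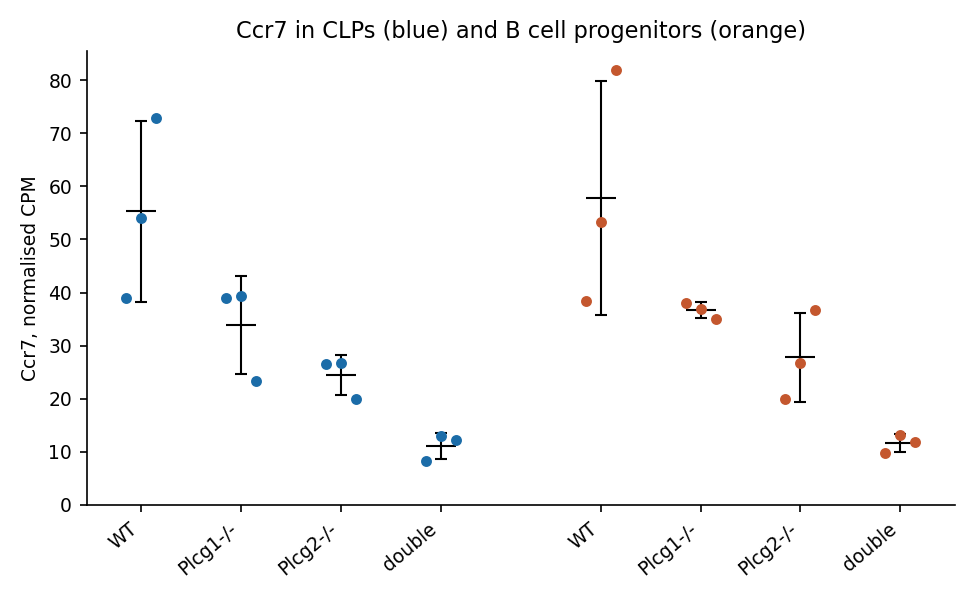
Ccr7 in normalised CPM (vertical axis) for each of the 24 libraries (points), grouped by genotype, with CLPs in blue and B cell progenitors in orange; black marks and bars are the mean ± SD of 3 mice. The double-deficient libraries lie between 8.20 and 13.2 CPM and the wild-type libraries between 38.4 and 81.9 CPM.

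Ccr7 was lower in cells labelled double-deficient, in CLPs and in B cell progenitors. In CLPs it was 19.8% of wild type (log2 fold change -2.34, SE 0.28, adjusted p = 0.0250 by edgeR), and it was the only called member, where 14 of 15209 genes tested, 0.0921%, were called in either direction. In B cell progenitors it was 20.5% of wild type (-2.29, SE 0.27, adjusted p = 0.00243), again as the only called member, where 0.893% of 15001 genes were called. The difference between both populations in this effect was 0.03 (95% interval -0.80 to 0.87, adjusted p = 1.00 by edgeR), and 0% of 17212 genes were called in that test. In CLPs the call was lost without wild type replicate 2 (adjusted p = 0.0733), double-deficient replicate 2 (0.118) or double-deficient replicate 3 (0.110), and with only the 2 groups compared in the fit (0.331), the log2 fold change staying between -2.65 and -2.08 over 14 alternatives.

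Neither single deficiency gave a call for Ccr7. In Plcg2-/- cells the level was 44.5% of wild type in CLPs (log2 fold change -1.17, 95% interval -1.76 to -0.57, unadjusted p = 0.00116, adjusted p = 0.939 by edgeR) and 47.9% in B cell progenitors (-1.06, -1.65 to -0.48, unadjusted p = 0.00185, adjusted p = 0.919), and the libraries of both groups did not overlap in either population. Libraries that do not overlap were found for 7.75% and 9.18% of genes in these comparisons. In Plcg1-/- cells it was 60.9% of wild type in CLPs (-0.72, 95% interval -1.30 to -0.13, adjusted p = 1.00) and 64.2% in B cell progenitors (-0.64, -1.20 to -0.08, adjusted p = 0.467), with overlap in CLPs and a gap of 38.4 against 38.1 CPM in B cell progenitors, where 19.3% of genes did not overlap. Of all 7 members, 0 were called in these 4 comparisons by edgeR or DESeq2, and 1 (Plcg1-/- CLPs), 2 (Plcg2-/- CLPs), 2 (Plcg1-/- B cell progenitors) and 1 (Plcg2-/- B cell progenitors) reached an unadjusted p of 0.05. Over all genes tested, in the same order, edgeR called 0.00658%, 0%, 0.06% and 0.0467%, and 2.85%, 3.92%, 9.93% and 2.84% reached that unadjusted p. DESeq2 called 16, 11, 29 and 17 genes in these comparisons.

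Double-deficient cells held less Ccr7 than either single-deficient genotype. Against Plcg1-/- the log2 fold change was -1.65 in B cell progenitors (SE 0.27, adjusted p = 0.0457 by edgeR, called, where 0.213% of genes were) and -1.62 in CLPs (SE 0.27, adjusted p = 0.101, not called, where 0.0263% were). The call in B cell progenitors was lost when any 1 of the 6 libraries was left out (adjusted p between 0.0614 and 0.209) and with only those groups in the fit (0.0564). Against Plcg2-/- the log2 fold change was -1.17 in CLPs (SE 0.27, adjusted p = 0.337) and -1.23 in B cell progenitors (SE 0.28, adjusted p = 0.181), where 0.0526% and 0.153% of genes were called. DESeq2 called Ccr7 in all 4 of these comparisons, but it also called far more genes. Against Plcg1-/- it called 802 genes in B cell progenitors and 96 in CLPs, and against Plcg2-/- 104 in CLPs and 161 in B cell progenitors. In the comparison with Plcg1-/-, where both groups were low in Ddx3y, 5 sex-linked genes had a median log2 fold change of -1.55 in CLPs, with 0 of 5 above 0, and of -0.51 in B cell progenitors, and none was called by edgeR (3 and 1 reached an unadjusted p of 0.05).

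The combined loss did not depart from the sum of both single losses by a called amount. The departure of Ccr7, on the log2 scale, was -0.45 in CLPs (95% interval -1.28 to 0.38, unadjusted p = 0.258 by edgeR) and -0.59 in B cell progenitors (-1.41 to 0.23, unadjusted p = 0.145). By edgeR 0 members were called or reached an unadjusted p of 0.05, where 0.0197% and 0.0267% of genes were called and 4.77% and 15.3% reached that p. By DESeq2 0 members were called, where 29 genes were called in CLPs and 642 in B cell progenitors. The intervals of Ccr7 leave room for a departure of more than 1 log2 unit in the direction of a larger combined loss.

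**Figure D2:**
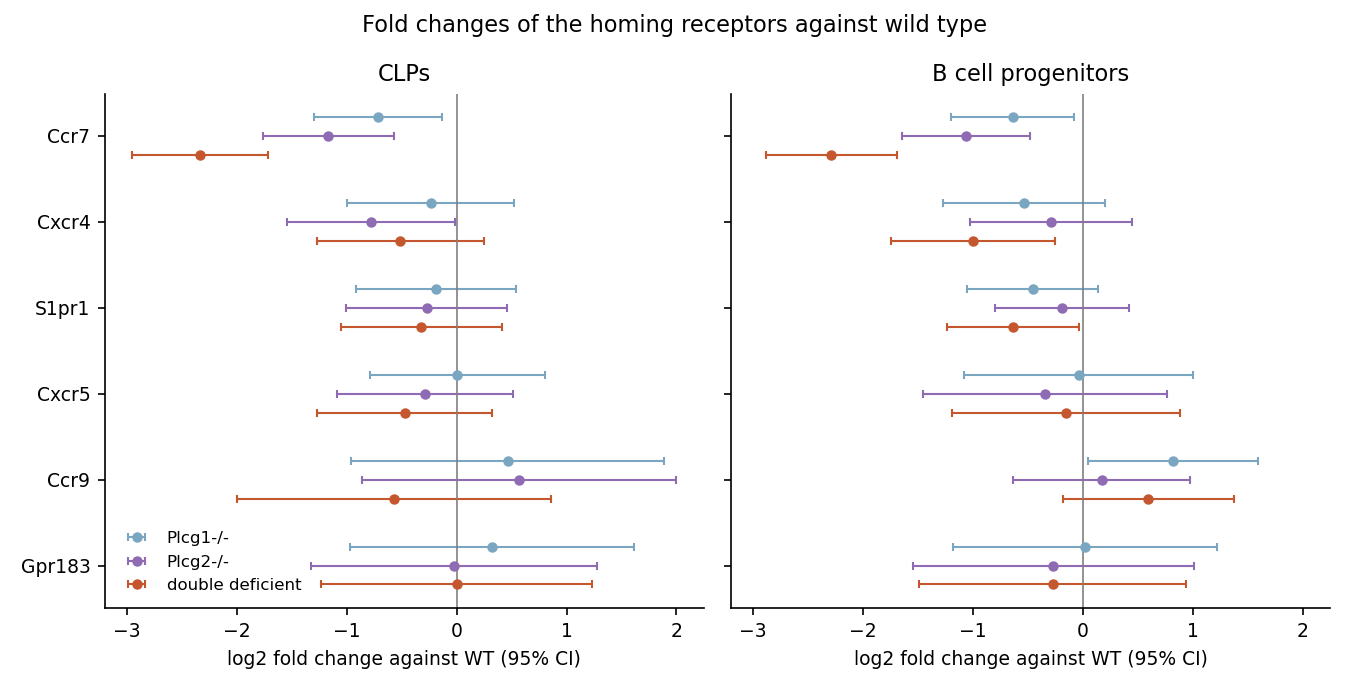
Log2 fold changes against wild type (horizontal axis) with 95% intervals from edgeR for 6 members in CLPs (left) and B cell progenitors (right), in Plcg1-/- (light blue), Plcg2-/- (purple) and double-deficient cells (orange). Ccr7 steps down from -0.72 through -1.17 to -2.34 in CLPs and from -0.64 through -1.06 to -2.29 in B cell progenitors, and most other intervals include 0; Ccr6, with few reads, is left out.

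Later B cell markers were also lower in double-deficient cells, though few were called. The sum of 10 such genes ranged from 523 to 1452 CPM in wild-type and from 347 to 663 CPM in double-deficient CLPs, and from 810 to 1225 and 293 to 661 CPM in B cell progenitors, with all 10 genes detected in each group. In the double-deficient comparison 0 of 10 were called in CLPs by edgeR (6 reached an unadjusted p of 0.05, as did 7.52% of all genes, and the median log2 fold change was -1.28 against -0.03 over all genes), and 2 of 10 in B cell progenitors, Fcmr (-3.77) and Ciita, the regulator of MHC class II genes (-2.39), where 9 reached that p, as did 12.3% of all genes. In single-deficient cells the later B cell markers had median log2 fold changes of 0.35 and 0.47 in Plcg1-/- and of 0.03 and -0.03 in Plcg2-/- CLPs and B cell progenitors, where those of Ccr7 were -0.72, -0.64, -1.17 and -1.06. Single markers spread widely around the Plcg2-/- medians. They ran from -1.19 to 1.04 in CLPs (7 of 10 above 0) and from -2.38 to 0.60 in B cell progenitors (5 of 10). Fcmr lay at 2 to 8.37 CPM in Plcg2-/- (2 CPM from 3 reads in replicate 3) and at 22.2 to 46.9 CPM in wild-type B cell progenitors. In CLPs it lay at 5.34 to 23.3 and 9.99 to 44.4 CPM, with overlap. The 10 committed early B cell markers had a median log2 fold change of 0.39 in double-deficient CLPs and 0.17 in double-deficient B cell progenitors, and none was called. Markers of myeloid cells lay higher in double-deficient cells, 10 of 10 above 0 in both populations, with medians of 0.85 in CLPs and 0.95 in B cell progenitors; their sum ranged from 2479 to 4303 CPM in wild-type and from 3760 to 8687 CPM in double-deficient CLPs, and from 1576 to 4851 and 2860 to 7651 CPM in B cell progenitors, and none was called by edgeR (1 and 3 reached an unadjusted p of 0.05). These medians were 0.98 and 0.89 in Plcg1-/- and 0.76 and 0.67 in Plcg2-/- cells. Of 8 erythroid markers 4 were tested, and all 4 lay above 0 in both populations (medians 1.04 and 0.99, 0 called, 2 and 0 at that p), while the 4 globin genes of the list were at 0 in every group. Of 10 T cell markers, 0 lay above 0 in double-deficient CLPs (median -0.65) and 9 in B cell progenitors (0.64). Of 11 NK and innate lymphoid markers, 3 and 10 lay above 0 (medians -0.39 and 0.65). Of 8 stem and multipotent progenitor markers, 3 and 7 did (-0.07 and 0.88), and none of all these markers was called by edgeR. Fewer cells with Ccr7 and less Ccr7 RNA per cell cannot be told apart in these bulk libraries. The part of any of these cell types in the result was not tested. Without the Flt3-richest CLP library of each genotype, an alternative added after seeing the data, Ccr7 was still called in double-deficient CLPs (-2.65, adjusted p = 0.0205).

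Ccr7 did not differ in a called way between the populations. The B cell progenitor level exceeded the CLP level by 0.06 on the log2 scale in wild type (95% interval -0.51 to 0.64), 0.11 in Plcg1-/-, 0.15 in Plcg2-/- and 0.10 in double-deficient mice. In the same mouse the ratio of both levels ranged from 0.750 to 1.83 with a median of 0.992 over 12 mice, below 1 in 7 and above 1 in 5. The wild-type mouse with most Ccr7 in CLPs (72.9 CPM) also had most in B cell progenitors (81.9 CPM), and the wild-type mouse with least (38.9 CPM) had least (38.4 CPM). The order differed in Plcg2-/-, where the mouse with least in CLPs (20.04 CPM) had most in B cell progenitors (36.7 CPM), and in Plcg1-/-, where the mouse with most in CLPs (39.4 CPM) was the second in B cell progenitors (36.8 CPM).

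**Figure D3:**
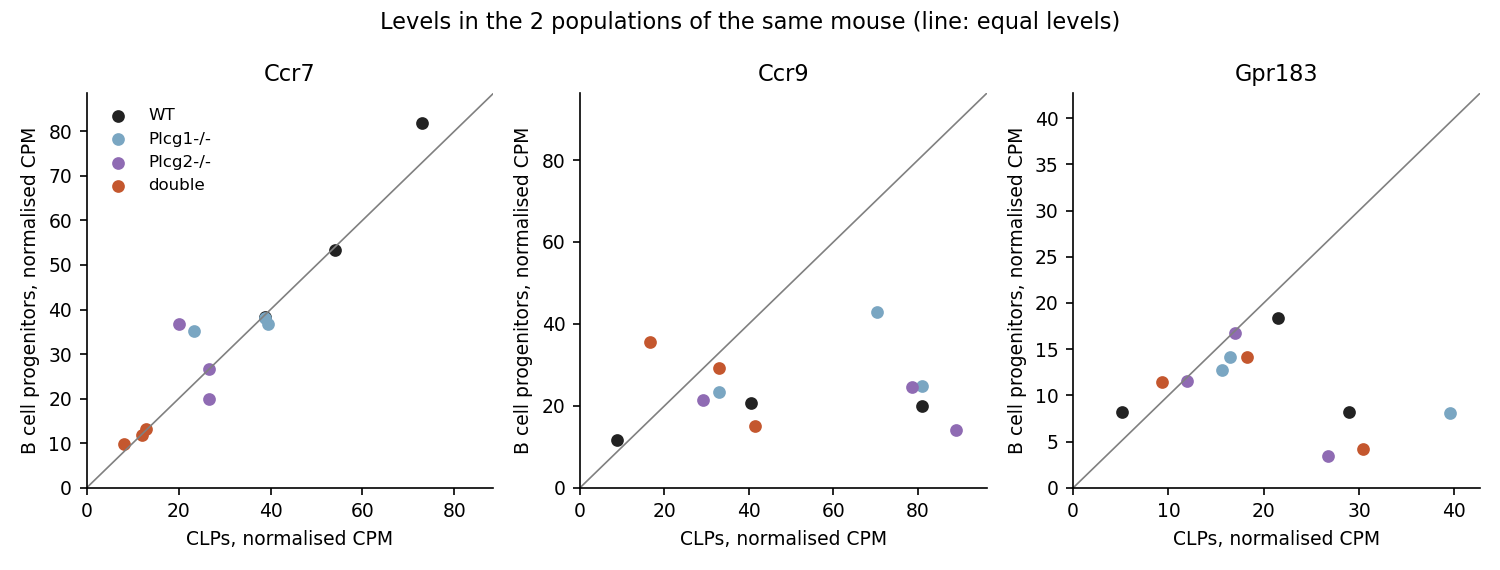
Level in CLPs (horizontal axis) and in B cell progenitors (vertical axis) of the same mouse, in normalised CPM, for Ccr7, Ccr9 and Gpr183; each point is 1 of 12 mice, coloured by genotype, and the line marks equal levels. Ccr7 points lie along the line (ratio 0.750 to 1.83), while 10 of 12 mice lie below it for Ccr9 and for Gpr183.

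Cxcr4 (chr1:128588199-128592293, minus strand) was the most abundant member in every group. In B cell progenitors it stood at 397, 733 and 880 CPM in wild type and at 282, 341 and 382 CPM in double-deficient mice, without overlap, as for 19.2% of genes. The double-deficient level was 50.1% of wild type (log2 fold change -0.998, SE 0.34, unadjusted p = 0.0126, adjusted p = 0.252), which was not called. In CLPs it was 264, 823 and 682 CPM in wild type and 333, 467 and 448 CPM in double-deficient mice, with overlap (-0.51, 95% interval -1.27 to 0.25). The lowest wild-type CLP value belonged to the Flt3-richest library, and without the Flt3-richest library of each genotype the difference was -0.95 for Cxcr4 and -0.72 for S1pr1, neither of them called. In Plcg2-/- CLPs Cxcr4 was 290, 349 and 385 CPM (-0.78, unadjusted p = 0.0458, adjusted p = 0.939).

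S1pr1 (chr3:115710433-115715072, minus strand) showed a smaller difference. In B cell progenitors it was 30.9, 46.7 and 61.8 CPM in wild type and 20.7, 27.0 and 41.5 CPM in double-deficient mice, and these libraries overlapped (log2 fold change -0.63, SE 0.28, unadjusted p = 0.0402, adjusted p = 0.379). In CLPs it was 34.2, 52.4 and 54.8 CPM in wild type and 21.5, 49.3 and 43.6 CPM in double-deficient mice (-0.32, 95% interval -1.05 to 0.41). The single-deficient means lay between 33.4 and 41.4 CPM, and no comparison was called.

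Cxcr5 (chr9:44511787-44561877, minus strand), a gene of mature B cells, was low. Its group means lay between 10.96 and 15.2 CPM, from single libraries of 4.50 to 21.7 CPM. The double-deficient log2 fold change was -0.47 in CLPs (95% interval -1.27 to 0.32) and -0.15 in B cell progenitors (-1.19 to 0.88), so a halving of Cxcr5 lies within both intervals.

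Ccr9 (chr9:123678439-123784330, plus strand) and Gpr183 (chr14:121952551-121965195, minus strand) spread widely between replicates of a genotype in CLPs. The promoters below were picked after the levels were seen. Ccr9 and Gpr183 were high and low in the same libraries, and Cxcr4 did not follow them. The promoter of Ccr6 is not shown, and a link between promoter letters and levels was not tested. The 250 bases before the RefSeq start of each gene (GRCm38.p6) are given 5′ to 3′, with capitals for the E-box letters CANNTG, which read the same on both strands and are bound by basic helix-loop-helix proteins; 4 of 7 members had an entry. They are chr9:123766961-123767210 on the plus strand for Ccr9, chr14:121965194-121965443 on the minus strand for Gpr183 and chr1:128592300-128592549 on the minus strand for Cxcr4, and the last 42 bases of the Ccr9 stretch lie in an exon of another transcript of that gene.
Ccr9: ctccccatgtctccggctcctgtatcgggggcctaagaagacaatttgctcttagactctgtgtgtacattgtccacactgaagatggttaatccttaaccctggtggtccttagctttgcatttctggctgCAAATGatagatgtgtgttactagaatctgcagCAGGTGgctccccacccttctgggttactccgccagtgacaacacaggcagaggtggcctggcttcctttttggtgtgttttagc
Gpr183: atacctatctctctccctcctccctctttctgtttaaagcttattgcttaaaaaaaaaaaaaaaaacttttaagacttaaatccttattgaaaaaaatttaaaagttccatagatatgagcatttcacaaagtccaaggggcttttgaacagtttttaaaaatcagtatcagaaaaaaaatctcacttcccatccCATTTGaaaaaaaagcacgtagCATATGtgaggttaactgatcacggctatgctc
Cxcr4: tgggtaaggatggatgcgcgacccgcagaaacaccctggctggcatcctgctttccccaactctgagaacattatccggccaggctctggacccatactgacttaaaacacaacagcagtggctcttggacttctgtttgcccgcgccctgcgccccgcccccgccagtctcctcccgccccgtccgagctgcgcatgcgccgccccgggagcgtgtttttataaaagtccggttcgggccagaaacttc
The Ccr9 and Gpr183 stretches each held 2 E-box matches that do not overlap, and the Cxcr4 stretch held 0. At least 1 match was present in 66.2% and at least 2 in 31.8% of 32851 promoters of this length. GC content was 50.4%, 32.0% and 61.2% for Ccr9, Gpr183 and Cxcr4, against a median of 52.4%. A match is a description of letters and not a bound site.

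Ccr9 in CLPs was 80.9, 8.77 and 40.6 CPM in wild type, 32.9, 81.0 and 70.2 CPM in Plcg1-/-, 29.2, 89.1 and 78.6 CPM in Plcg2-/- and 32.8, 41.5 and 16.5 CPM in double-deficient mice. In B cell progenitors it ranged from 11.7 to 42.9 CPM over 12 libraries. Replicates of a genotype differed in CLPs by as much as 80.9 and 8.77 CPM, and the genotypes overlapped. Double-deficient CLPs differed from wild type by -0.57 on the log2 scale (95% interval -1.997 to 0.86), and double-deficient B cell progenitors by 0.60 (-0.18 to 1.37); the difference between these effects was 1.14 (-0.51 to 2.79, adjusted p = 1.00 by edgeR). Plcg1-/- B cell progenitors, at 23.4, 24.8 and 42.9 CPM, lay above wild type, at 19.9, 11.7 and 20.6 CPM, without overlap, as for 19.3% of genes (0.82, unadjusted p = 0.0399, adjusted p = 0.467).

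Gpr183 in CLPs was 28.9, 5.12 and 21.5 CPM in wild type, 16.5, 39.5 and 15.6 CPM in Plcg1-/-, 11.9, 26.7 and 17 CPM in Plcg2-/- and 18.2, 30.4 and 9.37 CPM in double-deficient mice. In B cell progenitors it ranged from 3.49 to 18.4 CPM. Every genotype overlapped with wild type, and the double-deficient log2 fold change was 0.00 in CLPs (95% interval -1.23 to 1.23) and -0.27 in B cell progenitors (-1.49 to 0.94).

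In each of the 4 genotypes the CLP library with most Flt3 also held the most Ccr9 and the most Gpr183. It held the most Ccr7 in 3 of 4 genotypes, with 38.9, 39.4, 26.7 and 12.9 CPM from wild type to double-deficient, the wild-type value being the lowest of its group. The markers of NK and innate lymphoid cells summed to 521 to 910 CPM in these 4 libraries and to 73.6 to 327 CPM in the other 8, with none of the 11 genes at 0 throughout a group. Their part in the levels of Ccr9 and Gpr183 was not tested. Without these libraries the double-deficient log2 fold change in CLPs was -0.08 for Ccr9 and -0.03 for Gpr183.

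**Figure D4:**
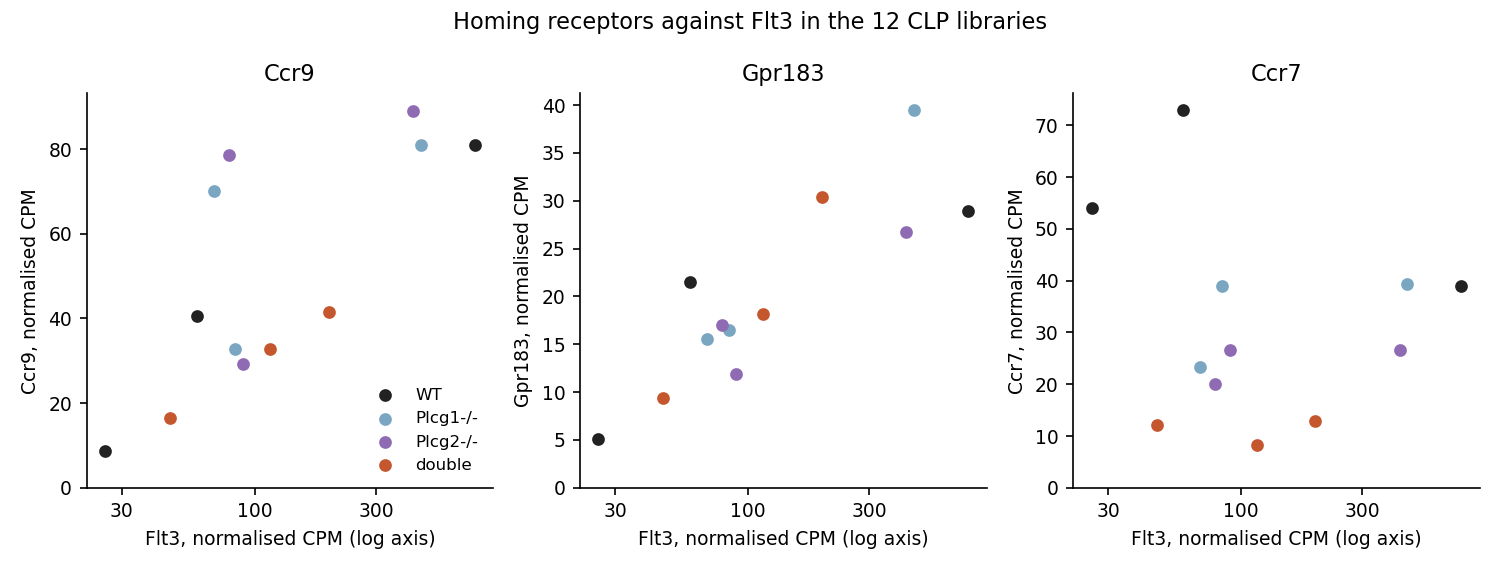
Flt3 (horizontal log axis) against Ccr9, Gpr183 and Ccr7 (vertical axes), all in normalised CPM, in the 12 CLP libraries, coloured by genotype. The library with most Flt3 in each genotype (196 to 735 CPM) is also the highest of its genotype for Ccr9 and Gpr183, whereas Ccr7 is lowest in the 3 double-deficient libraries whatever their Flt3.

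Between the populations, Ccr9 had the largest difference of the 7 members in wild-type and Plcg2-/- mice. The B cell progenitor level was 39.5% of the CLP level in wild type (log2 difference -1.34, unadjusted p = 0.0277, adjusted p = 0.235) and 29.6% in Plcg2-/- (-1.76, 95% interval -3.004 to -0.51, unadjusted p = 0.00799, adjusted p = 0.125), where the libraries did not overlap, as for 18.3% of genes. It was 49.5% in Plcg1-/- and 87.2% in double-deficient mice. Within a mouse it was lower in B cell progenitors in 10 of 12, with ratios from 0.159 to 2.15 and a median of 0.560, and Gpr183 was lower in 10 of 12, with a median ratio of 0.835. By edgeR 0 members were called between the populations in any genotype, where 3.5%, 3.78%, 3.21% and 3.24% of genes were called from wild type to double-deficient. DESeq2 called Ccr9 in Plcg2-/- mice, where it called 764 genes, and no member elsewhere. It called 818, 1484 and 751 genes in wild-type, Plcg1-/- and double-deficient mice. From wild type to double-deficient 1, 0, 1 and 0 members reached an unadjusted p of 0.05 by edgeR, as did 16.1%, 26.5%, 16.2% and 14.3% of genes. Without the Flt3-richest CLP libraries the wild-type difference of Ccr9 was -0.55. The populations also differed in the share of reads on no gene, 17.9% to 45.2% in CLP libraries and 59.9% to 87.3% in the others. Its part in differences between the populations was not tested.

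Ccr6 (chr17:8236043-8257141, plus strand) was at the limit of detection. It had 0 reads in wild-type CLP replicate 2, Plcg2-/- CLP replicate 3 and double-deficient B cell progenitor replicate 1, where a count of 0 allows up to 0.699, 0.709 and 1.05 CPM, and at most 58 reads in any library. The highest group mean was 3.01 ± 1.46 CPM in Plcg1-/- B cell progenitors, with 4.46, 3.04 and 1.54 CPM, against 1.18, 0.859 and 0.905 CPM in wild type, without overlap, as for 19.3% of genes (log2 fold change 1.62, SE 0.84, adjusted p = 0.467). Against the double-deficient libraries, at 0, 0.257 and 1.46 CPM, the log2 fold change of double-deficient over Plcg1-/- was -2.31 (unadjusted p = 0.0233, adjusted p = 0.220), and a log2 fold change of a gene this low depends on the prior count.

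**Figure D5:**
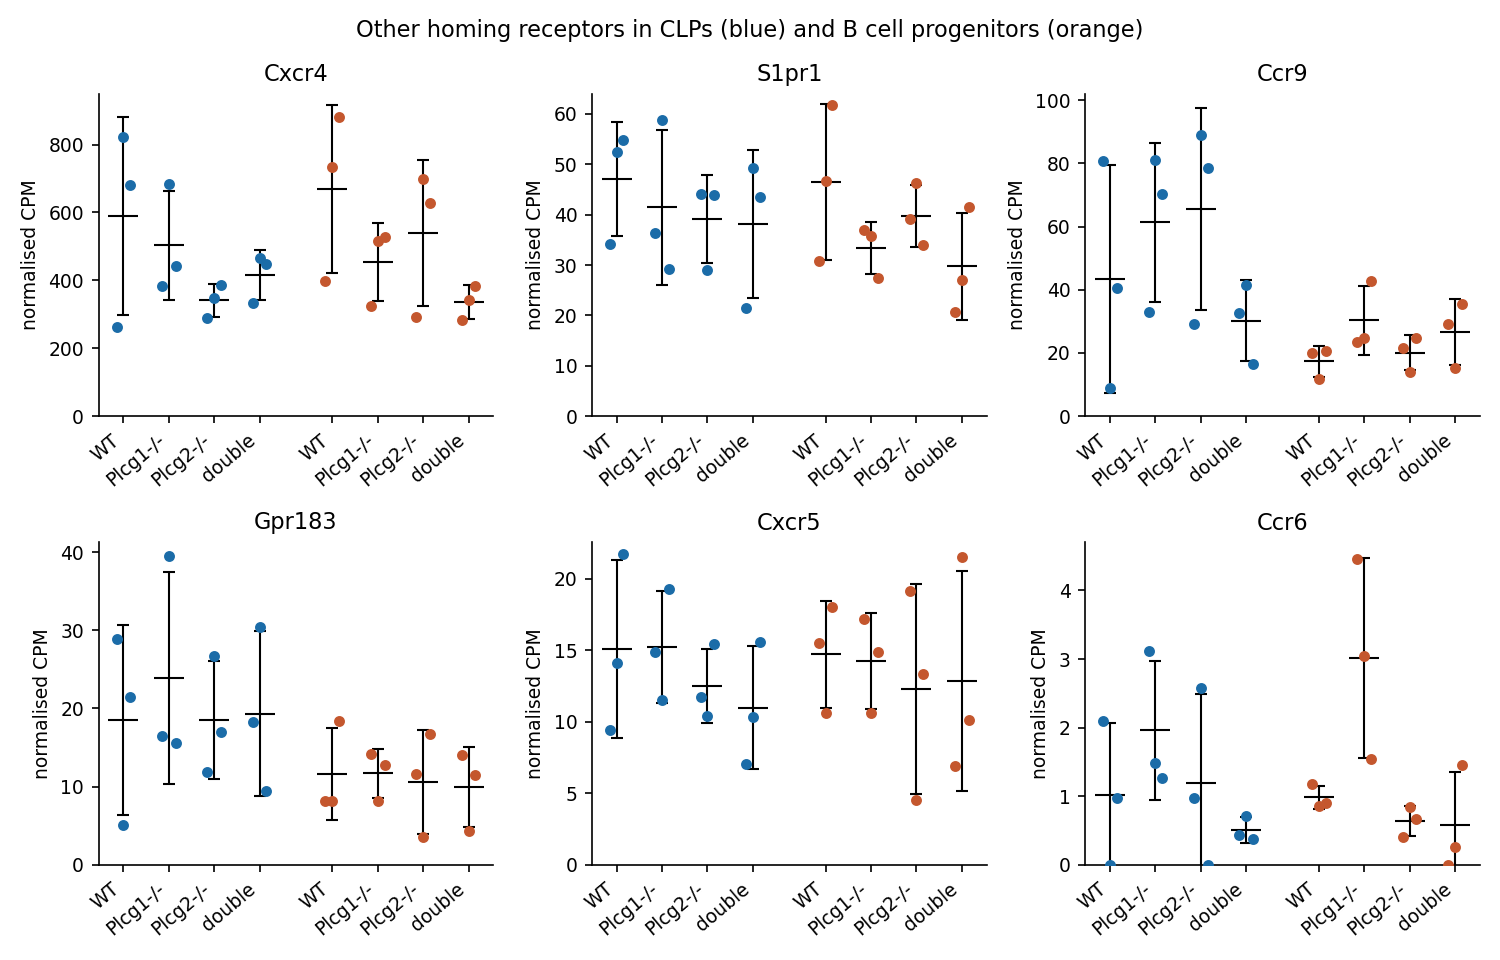
Cxcr4, S1pr1, Ccr9, Gpr183, Cxcr5 and Ccr6 in normalised CPM (vertical axes) in each library (points), by genotype, with CLPs in blue and B cell progenitors in orange; black marks and bars are the mean ± SD of 3 mice. Cxcr4 in double-deficient B cell progenitors (282 to 382 CPM) lies below wild type (397 to 880 CPM), and the CLP points of Ccr9 and Gpr183 spread widely within each genotype.

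As a group, the 7 members had a median log2 fold change of -0.51 in double-deficient CLPs, with 0 of 7 above 0 (Gpr183 at 0.00), and of -0.63 in B cell progenitors, with 1 of 7 above 0, where the medians over all genes were -0.03 and -0.02. Across the 24 libraries, the log2 CPM of Ccr9 and Gpr183 had a Pearson correlation of 0.80, of Cxcr4 and S1pr1 of 0.63, of Ccr7 and Cxcr4 of 0.60 and of Ccr7 and S1pr1 of 0.54. The points share genotype, mouse and depth, and these values are descriptions. The genes most like Ccr7 over 24 libraries were H2-T22 (0.88), Blk, a Src-family kinase of B cells (0.87), and Ier5l (0.86). H2-T22 was near the floor, with group means of 0.0413 to 1.13 CPM and at most 43 reads in a library. Over the 12 CLP libraries the genes most like Ccr7 were Relb, an NF-κB subunit (0.94), 6330407A03Rik (0.92) and Ier5l (0.91), and over the 12 B cell progenitor libraries Zc3h12d (0.91), Fam189a1 (0.91) and E2f1 (0.91). Ccr9 was most like Klrk1, an NK cell receptor (0.91), Src (0.90) and Lag3 (0.90), and Gpr183 was most like Plek (0.91), Id1 (0.91) and Tagap (0.90). Cxcr4 was most like Herpud1 (0.93), Ets2 (0.90) and Slc25a25 (0.88). For the other 3 members the likeness was weaker, with Hivep3 (0.69), Slc28a2 (0.58) and Hspa9 (0.56) for Cxcr5, Bcar3 (0.76), Rita1 (0.74) and Hist3h2a (0.73) for S1pr1, and Gm8369 (0.75), Chst10 (0.71) and Map6d1 (0.69) for Ccr6.

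Other genes of homing were read against all genes in the double-deficient comparison, of which 0.0921% were called in CLPs and 0.893% in B cell progenitors, and 7.52% and 12.3% reached an unadjusted p of 0.05. Of other chemokine receptors, 0 of 16 tested were called in double-deficient CLPs and 0 of 15 in B cell progenitors by edgeR, with 1 and 1 that reached an unadjusted p of 0.05. Of receptors for lysophospholipids and related lipids, 0 of 12 were called in CLPs (3 reached an unadjusted p of 0.05) and 1 of 12 in B cell progenitors, Lpar2, a lysophosphatidic acid receptor that fell by 0.98 on the log2 scale (adjusted p = 0.0233). For ligands and the enzymes that make them 0 of 7 tested were called in either population (2 in CLPs and 0 in B cell progenitors reached that p), for adhesion molecules 0 of 17 and 0 of 16 (0 and 3), and for signal transducers of these receptors 0 of 25 in both (4 and 7). Of 9 transcription factors known to act on homing receptor genes, 0 were called in CLPs (3 reached that p) and 1 in B cell progenitors, Bach2, a repressor of plasma cell genes, which fell by 2.21 on the log2 scale (adjusted p = 0.00747). Klf2, which drives S1pr1 in T cells, and Relb, chosen here after their values were seen, had log2 fold changes of -1.18 and -0.83 in CLPs (adjusted p = 0.407 and 0.137) and of -1.93 and -0.79 in B cell progenitors (adjusted p = 0.126 and 0.193), and neither was called.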

How the data were processed

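Reads of poly(A) RNA had been aligned to mm10 with STAR 2.5.0a per the labels, and the authors deposited, for each library, whole-number counts of reads per gene symbol without normalization; the counting program is not given in the sources used here. Lines for reads on no gene (17.9% to 87.3% of reads) or ambiguous reads were left out. The members, gene lists and tests were chosen with earlier results of these data known. Counts were tested with edgeR 4.0.16 (TMM, filterByExpr, glmQLFTest) in R 4.3.3, with all 4 genotypes of a population in one fit and no covariate, and all 24 libraries in one fit for contrasts between populations; intervals have 95% confidence. The scripts were tested on simulated data. Alternatives were RLE factors, no low-count filter, DESeq2 1.42.0, a block, thinned counts, only 2 groups, adjusted p alone and each library left out. Mouse numbers in the labels pair both populations of an animal. Deviations from group means had a mean correlation of 0.114 within an animal (-0.350 to 0.530). The mean of -0.059 between different animals is no separate check, because deviations within a group sum to 0. All 7 members are named, with 3 most correlated genes each (log2 CPM, prior count 2), called genes of the other lists and those said to be chosen after their values were seen. Lengths and positions come from GENCODE M21, promoters from RefSeq (GRCm38.p6). Replicates differed beyond sampling noise (chi-square per degree of freedom 8.28 to 133). Intervals and floors cover counting error only where they rest on reads of 1 library.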

Additional observations from a re-analysis of the deposited data

How the results depend on the processing

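Of 17 comparisons, the number of members called changed in 7 under some alternative, and the 56 group levels moved by less than 1 SD with RLE factors. With DESeq2 the number called was 1 in place of 0 in double-deficient against Plcg1-/- CLPs (Ccr7), against Plcg2-/- CLPs (Ccr7) and against Plcg2-/- B cell progenitors (Ccr7), and between the populations of Plcg2-/- mice (Ccr9). With only the 2 groups compared in the fit it was 0 in place of 1 in double-deficient against wild-type CLPs and against Plcg1-/- B cell progenitors. Leaving out 1 library gave 0 to 1 in the former and 0 in the latter. Why these calls were lost was not tested. With the replicate number as a block, 2 members were called in double-deficient against wild-type B cell progenitors, Ccr7 and Cxcr4 (-0.93, adjusted p = 0.0134 by edgeR). The genotypes share only a number. For the same number, correlations of deviations ran from -0.196 to 0.613 in CLPs (mean 0.205), with all 9 pairs among the knockout groups above 0.2. They ran from -0.528 to 0.658 in B cell progenitors. The block, which is the mouse between populations, changed no other call of a member.

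Differences near 0 changed sign. For Gpr183 in double-deficient CLPs the log2 fold change was 0.01 with RLE factors, 0.02 without the filter, 0.04 with DESeq2, 0.15 with thinned counts, 0.02 with 2 groups and from -0.46 to 0.43 when 1 library was left out. With 1 library left out it was from -1.003 to 0.21 for Ccr9 in double-deficient CLPs, and in double-deficient B cell progenitors from -0.77 to 0.12 for Cxcr5 and from -0.59 to 0.27 for Gpr183. For Ccr7 between populations, thinned counts gave -0.23, -0.05, -0.11 and -0.07 from wild type to double-deficient, the fit without the filter gave -0.03 in Plcg1-/-, and the fit without the Flt3-richest libraries gave -0.11 in wild type. Leaving out 1 library gave from -0.26 to 0.34 in wild type, -0.25 to 0.12 in Plcg1-/-, -0.17 to 0.17 in Plcg2-/-, -0.07 to 0.21 in double-deficient mice and -0.23 to 0.36 for the difference of the double-deficient effect between populations.

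In double-deficient against wild-type CLPs 14 genes were called, 169 by DESeq2, 50 with the block, 27 without the Flt3-richest libraries and 0 with only 2 groups. The same comparison in B cell progenitors gave 134 calls, 444 by DESeq2, 550 with the block and 238 with only 2 groups. Against Plcg1-/- B cell progenitors 32 were called, 802 by DESeq2, 100 with the block, 17 with RLE factors, 15 with thinned counts and 0 with only 2 groups. The 4 called against Plcg1-/- CLPs became 96 by DESeq2, 17 with the block, 7 without the filter and 0 with only 2 groups or without the Flt3-richest libraries. The 8 called against Plcg2-/- CLPs became 104 by DESeq2, 26 with the block, 13 without the filter, 5 with thinned counts, 2 without the Flt3-richest libraries and 0 with only 2 groups, and the 23 called against Plcg2-/- B cell progenitors became 161, 46 with the block and 7 with only 2 groups. DESeq2 called 29 in place of 3 and 642 in place of 4 for the departure from additivity in CLPs and B cell progenitors, and 16, 11, 29 and 17 in place of 1, 0, 9 and 7 for the single deficiencies (Plcg1-/- and Plcg2-/- CLPs, then B cell progenitors). Between populations 602, 650, 552 and 557 were called from wild type to double-deficient, and 364, 295, 283 and 355 without the Flt3-richest libraries. A departure from additivity and a difference between effects need 4 groups and could not be fitted with 2. Depth limits Ccr6.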
